A study of Mus musculus with 12 samples.

Results

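The genes described here encode the subunits of the 5 enzyme complexes of oxidative phosphorylation. They were chosen by symbol alone, as every gene name on the array that begins with Nduf, Uqcr, Cox4, Cox5, Cox6, Cox7, Cox8 or Atp5, together with Sdha, Sdhb, Sdhc, Sdhd and Cyc1. This took 90 of the 21186 gene names on the array, measured by 129 probes. Of these, 82 name a subunit and 8 do not: the complex I assembly factors Ndufaf1, Ndufaf2, Ndufaf3 and Ndufaf4, the supercomplex factor Cox7a2l, and Cox4nb, Atp5s and Atp5sl. In all, 88 of the 90 genes were tested. Cox4i2, an alternative form of subunit IV, was well above background on 0 of the 12 arrays, and Cox8c on 1, so neither was tested.

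Complexes I to IV, in the inner mitochondrial membrane, pass electrons from NADH and succinate to oxygen. Complexes I, III and IV also pump protons, and ATP synthase uses the returning protons to make ATP. Complex I takes electrons from NADH, complex II from succinate, complex III hands them to cytochrome c and complex IV, cytochrome c oxidase, gives them to oxygen. Most subunits are encoded in the nucleus and a few in mitochondrial DNA. Several complex IV subunits exist in more than 1 form, among them a liver and a heart and muscle form of subunits VIa and VIIa. Neurons draw most of their ATP from this pathway.

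RNA from entire cerebellum and entire hippocampus was hybridized to 1-colour Agilent arrays, 1 array per sample, with 3 arrays in each of 4 groups: cerebellum WT, cerebellum En2KO, hippocampus WT and hippocampus En2KO. WT (labelled En2WT) and En2KO mice were littermates of both sexes from heterozygous matings, 3 to 5 months old, on a C57BL/6 background after at least 5 crosses from a mixed 129Sv x C57BL/6 and outbred stock. En2KO mice lack the homeobox of En2, a transcription factor of the hindbrain and midbrain, in all cells from conception, so that effects of development and of adult loss cannot be told apart. The labels do not say whether both tissues came from the same mouse. The array's En2 probe lies in a part of the gene that the mutation leaves in place, and therefore does not check the genotype.

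On each array 62.3% to 73.0% of 43379 spots were well above background and none was saturated. Replicate 1, 2 and 3 of every group lay on slide 1, 2 and 3, so each slide holds all 4 groups. The Feature Extraction run and the annotation version differed between the tissues, and they cannot be told apart from region. The tissues carried their own markers: in WT, all 6 Purkinje cell and all 6 granule cell markers were called higher in cerebellum, and all 6 markers of hippocampal neurons lower. Parvalbumin interneuron markers were higher in cerebellum (3 of 3, Pvalb being also among the Purkinje cell markers) and microglia markers lower (5 of 5), and the part of cell type shares in the values that follow was not tested. In bulk tissue, fewer cells of a type and less RNA per cell cannot be told apart. On slide 2, hippocampus WT replicate 2 and cerebellum En2KO replicate 2 stood apart for the genes described here, and results are given with and without that slide where it matters.

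Promoters of these genes are known for sites of NRF1, the ETS factor GABP, YY1 and the estrogen-related receptors (ERR), and 6 short stretches are shown for such letters. RefSeq promoter sequences (build GRCm38.p6, 250 bases before to 50 after the gene start) were matched for 67 of the 82 subunit genes. Either strand was searched. The NRF1 letters, GCGCA, then any base, then GCGC, were in 17 of the 67 (25.4%) and in 5.19% of all 27025 genes with a promoter sequence. The ETS letters CCGGAAG were in 16 (23.9%, against 9.93%), the YY1 letters AAGATGGC in 10 (14.9%, against 3.19%) and the ERR letters TCAAGGTCA in 2 (2.99%, against 0.466%). A match is a stretch of letters and was not tested as a binding site. Capitals mark the matched letters, read 5′ to 3′ on the strand of the gene. All 5 genes lie on the minus strand.
Cox6a1, NRF1 letters, chr5:115349101-115349130: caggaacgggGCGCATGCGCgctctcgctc
Cox6a1, NRF1 letters, chr5:115349056-115349085: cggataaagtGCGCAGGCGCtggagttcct
Sdhd, NRF1 letters, chr9:50603909-50603938: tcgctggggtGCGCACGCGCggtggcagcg
Ndufs3, ETS letters, chr2:90904730-90904759: cccgcgtccgcCCGGAAGaagagtcactgc
Atp5j, YY1 letters, chr16:84835046-84835075: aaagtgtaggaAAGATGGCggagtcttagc
Atp5g3, ERR letters on the opposite strand, chr2:73911359-73911388: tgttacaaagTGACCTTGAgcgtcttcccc
They are shown to let the same letters be seen in genes of 4 of the complexes. Subunit genes called between the regions in WT were of both kinds. No match to the letters searched was found in the windows of Cox7a1, Cox7b2, Cox5a, Ndufb5 and Ndufb10. Uqcrc1 held the NRF1 letters, Uqcrh the ETS letters, and Ndufa9 and Ndufb8 the YY1 letters. Cox6a2 had no promoter sequence matched. Whether matches and calls go together was not tested.

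In WT mice most oxidative phosphorylation genes had a higher mean in cerebellum than in hippocampus, by small amounts, and a few forms of complex IV subunits differed by far more. By limma (Benjamini-Hochberg adjusted p under 0.05 over all genes tested), 11 of the 88 genes were called, 10 higher and 1 lower in cerebellum, where 32.3% of all 15687 genes tested were called (17.3% higher and 15% lower). The mean was higher in cerebellum for 77 of the 88, against 54.4% of all genes. The median log2 difference of the 88 was 0.34, against 0.07 over all genes tested. Without the 4 arrays of slide 2 it was 0.21, against 0.06. The 3 cerebellum arrays lay above the 3 hippocampus arrays for 36 of the 88 and below them for 1, where 24.5% and 20% of all genes did so. At an unadjusted p under 0.05 there were 25, against 42.5% of all genes. The share called was thus below that of all genes, while the share with a higher mean was above it.

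The count of 11 depended on single arrays. It was 5 without hippocampus WT replicate 1, 4 without hippocampus WT replicate 2, 5 without cerebellum WT replicate 1, 7 without cerebellum WT replicate 2, and 3 without the 4 arrays of slide 2. The 3 that remained without slide 2 were Cox6a2, Cox7a1 and Uqcrc1. Every other call of the 11 was also lost without 1 or more single arrays.

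The medians of the complexes were close to each other. The median log2 difference was 0.33 over the 37 complex I genes, 0.37 over the 4 of complex II, 0.38 over the 9 of complex III, 0.29 over the 15 tested of complex IV and 0.37 over the 15 of ATP synthase. The mean was higher in cerebellum for 33, 4, 8, 10 and 14 of them in that order. Complex IV differed in its spread: its differences ran from −2.46 to 1.60, whereas those of complex I ran from −0.19 to 0.65.

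**Figure D1:**
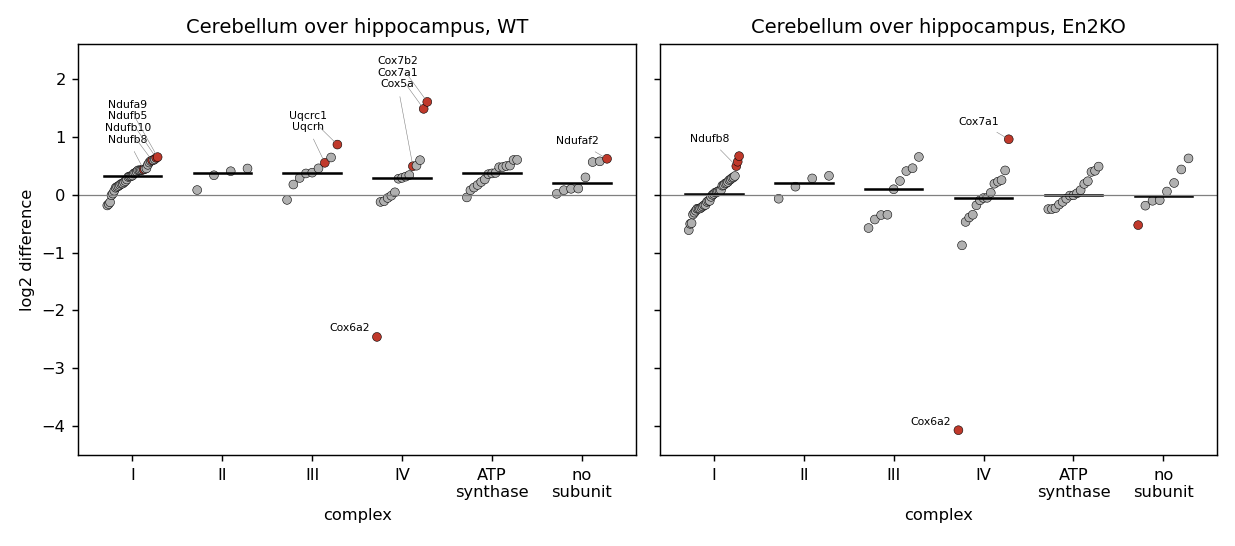
Log2 difference of cerebellum over hippocampus for each tested gene, by complex, in WT (left) and En2KO (right), with 3 arrays per group. Each point is a gene, red points passed limma at an adjusted p under 0.05, those that passed in WT are named, and black lines are medians by complex. In WT most points lie above 0 in every complex and Cox6a2 lies at −2.46, while in En2KO the points lie about evenly on both sides of 0.

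In complex I, 4 of 37 genes were called, all higher in cerebellum. Ndufa9, an accessory subunit at the joint of the membrane and matrix arms, had log2 levels of 15.25, 14.86 and 15.17 in cerebellum WT and 14.45, 14.48 and 14.41 in hippocampus WT. The groups did not overlap, and the difference was 0.65 ± 0.20 (SE, n = 3 per group, limma adjusted p = 0.0258). The accessory subunits of the membrane arm Ndufb5 (0.63, adjusted p = 0.0374) and Ndufb10 (0.59, adjusted p = 0.0304) were also called. Ndufb8, another subunit of that arm, had the smallest difference among those called, with 16.33, 16.35 and 16.38 in cerebellum and 15.89, 15.95 and 15.92 in hippocampus. That difference was 0.43 ± 0.14 (SE, adjusted p = 0.029), and its second probe gave 0.21. The Ndufb8 call was lost with the mean of its probes (0.32, adjusted p = 0.669) and when only WT arrays were fitted (adjusted p = 0.109). It held when cerebellum WT replicate 3 was left out, but not when any other single array of the comparison was. Among the core subunits, Ndufs1, which carries iron-sulfur clusters, differed by 0.42 (adjusted p = 0.0535) and Ndufv1, which binds NADH, by 0.45 (adjusted p = 0.0602). Both were close to the threshold, and values of the other core subunits are not given here. Under other settings the adjusted p ran from 0.0178 to 0.253 for Ndufs1 and from 0.047 to 0.427 for Ndufv1. Ndufa4, which the rule takes by name with complex I and which is now regarded as a complex IV subunit, differed by 0.33 (adjusted p = 0.22).

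None of the 4 complex II genes, which also serve the citrate cycle, passed the test. Sdhb, the iron-sulfur subunit, had levels of 14.15, 14.16 and 14.21 in cerebellum WT and 13.91, 13.31 and 13.94 in hippocampus WT. The groups did not overlap, hippocampus WT replicate 2 was the low array, and the difference was 0.45 (adjusted p = 0.0956). Sdha, the flavoprotein, differed by 0.08 (adjusted p = 0.84), and its 2 other probes gave 0.11 and 0.92.

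In complex III, 2 of 9 genes were called. Uqcrc1, a core protein of the matrix side, had levels of 15.86, 15.63 and 15.66 in cerebellum WT against 14.95, 14.85 and 14.76 in hippocampus WT. Each slide gave a like difference, of 0.90, 0.78 and 0.91, and the fit gave 0.86 ± 0.17 (SE, adjusted p = 0.00208), which is 1.82-fold. Its second probe gave 0.74. Uqcrh, the hinge protein, was higher in cerebellum by 0.55 ± 0.17 (SE, adjusted p = 0.0273). Cyc1, cytochrome c1, differed by 0.64 (adjusted p = 0.118) and Uqcrfs1, the Rieske protein, by 0.38 (adjusted p = 0.253).

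Complex IV held the largest differences in both directions. Cox6a2, the heart and muscle form of subunit VIa, had levels of 9.24, 6.67 and 7.53 in cerebellum WT and of 10.48, 9.93 and 10.40 in hippocampus WT. All 3 cerebellum arrays were below all 3 hippocampus arrays, and replicate 1 stood highest in cerebellum. The difference was −2.46 ± 0.50 (SE, adjusted p = 0.00255), a level 5.49-fold lower in cerebellum. It was −3.17 without cerebellum WT replicate 1 and −1.89 without cerebellum WT replicate 2, and the call held. Cox6a1, the liver form of the same subunit, differed by −0.13 (adjusted p = 0.587), a sign that turned with normexp, local background subtraction and 75th percentile scaling.

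Cox7a1, the heart and muscle form of subunit VIIa, went the other way. Its levels were 12.06, 12.18 and 12.68 in cerebellum WT and 10.82, 10.73 and 10.94 in hippocampus WT, so the groups were over 1 unit apart. The difference was 1.48 ± 0.28 (SE, adjusted p = 0.00146), 2.79-fold higher in cerebellum. Cox7a2, the liver form, differed by 0.31 ± 0.32 (SE, adjusted p = 0.495). The muscle forms of subunits VIa and VIIa thus had differences of opposite sign between the same arrays.

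Cox7b2, a form of subunit VIIb known mainly from testis, had levels of 6.58, 7.31 and 7.88 in cerebellum WT and 5.48, 5.55 and 5.95 in hippocampus WT. These were low signals, well above background on all 12 arrays. The difference was 1.60 ± 0.45 (SE, adjusted p = 0.0168), and it was 0.88 with normexp. The call was lost without hippocampus WT replicate 1 (1.51, adjusted p = 0.0582), hippocampus WT replicate 2 (1.55, adjusted p = 0.0513) or cerebellum WT replicate 3 (1.29, adjusted p = 0.065). Cox5a, a subunit on the matrix side, was higher in cerebellum by 0.49 ± 0.15 (SE, adjusted p = 0.0235). Other forms did not pass: Cox4i1 differed by 0.27 (adjusted p = 0.189), Cox6b2, a form known from testis, by 0.50 (adjusted p = 0.186), and Cox8a by 0.04 (adjusted p = 0.899). Cox6b1 (0.59, adjusted p = 0.51) and Cox8b (0.29, adjusted p = 0.777) rested on 1 array and turned sign without hippocampus WT replicate 2.

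**Figure D2:**
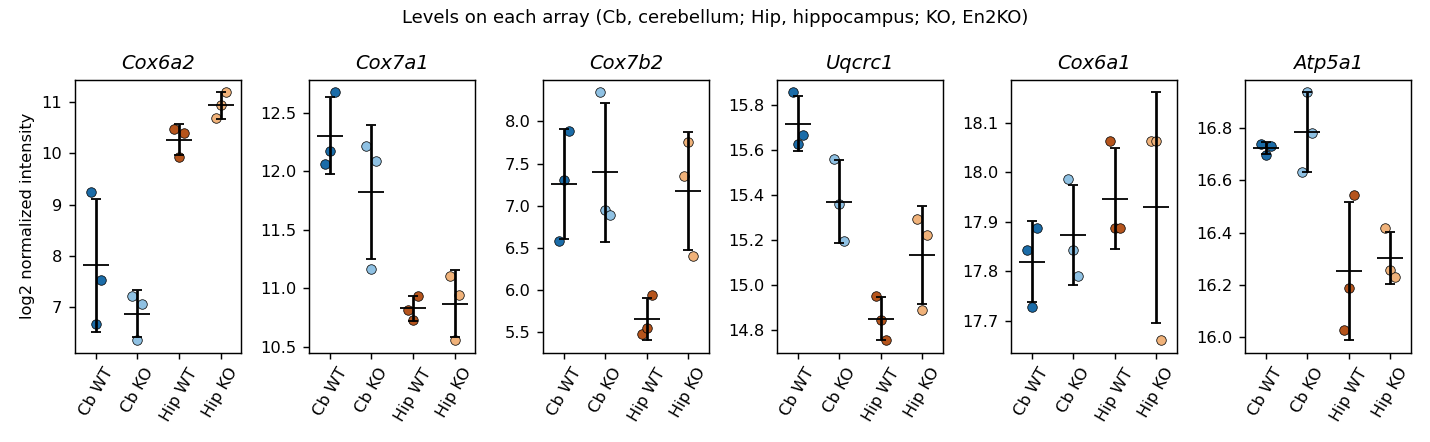
Quantile normalized log2 level on each array for genes named in the text, in the 4 groups. Points are arrays, with the mean and SD (n = 3) drawn beside them, and each panel has its own y axis, which does not start at 0. Cox6a2 is lower and Cox7a1 higher in cerebellum than in hippocampus in both genotypes.

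In ATP synthase none of 15 genes was called, although 14 had a higher mean in cerebellum. Atp5a1, the alpha subunit of the catalytic head, had levels of 16.74, 16.70 and 16.73 in cerebellum WT and 16.02, 16.19 and 16.54 in hippocampus WT. The groups did not overlap, and the difference of 0.47 ± 0.17 (SE) had an adjusted p of 0.0512. Atp5a1 passed with normexp (adjusted p = 0.0141), local background subtraction (adjusted p = 0.014) or the mean of its probes (adjusted p = 0.0274). Under other settings its adjusted p reached 0.232. Atp5b, the beta subunit of the same head, differed by 0.07 (adjusted p = 0.775), but its 3 other probes gave 0.34 to 0.93. The genes Atp5g1, Atp5g2 and Atp5g3, which encode the same mature subunit c of the rotor ring, differed by 0.49, 0.50 and 0.37, with adjusted p from 0.119 to 0.179. Of the 8 genes that name no subunit, all had a higher mean in cerebellum, and Ndufaf2 was called (0.62 ± 0.20, SE, adjusted p = 0.0325). That call was lost whichever single WT array was left out (adjusted p from 0.0609 to 0.0872), and without slide 2 (adjusted p = 0.122).

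In En2KO mice about as many genes had a higher as a lower mean in cerebellum. Cox6a2 and Cox7a1 were called in the same directions as in WT. The means came from other arrays than in WT, but the spread was estimated over all 12 arrays, so the calls are not fully separate. Of the 88 genes, 6 were called, 4 higher and 2 lower in cerebellum, where 27.2% of all 15497 genes were called (12.8% higher and 14.3% lower). The mean was higher in cerebellum for 44 of 88, against 48.3% of all genes, and the median log2 difference was 0.00, against −0.02. The cerebellum arrays lay above the hippocampus arrays for 12 of the 85 genes with all values and below them for 4, where 21.5% and 23.7% of all genes did so. At an unadjusted p under 0.05 there were 12, against 38%. With 75th percentile scaling the count was 3 and the median −0.29. The count was 2 without hippocampus En2KO replicate 2, hippocampus En2KO replicate 3 or cerebellum En2KO replicate 3, and 2 without slide 2. The median rose to 0.20 without cerebellum En2KO replicate 2. Without slide 2 it was 0.18, against −0.01 over all genes, and the median in WT without that slide was 0.21. The gap between the WT and En2KO medians thus rested largely on slide 2.

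The genes named here for En2KO were singled out after their values were seen. Cox6a2 had levels of 7.21, 6.35 and 7.06 in cerebellum En2KO and 10.68, 10.93 and 11.20 in hippocampus En2KO. That was the widest gap of all these genes, −4.07 ± 0.50 (SE, adjusted p = 7.24e-05), or 16.8-fold, and it was −3.40 with normexp. Cox7a1 had levels of 12.22, 11.16 and 12.09 against 11.11, 10.55 and 10.94, a difference of 0.96 ± 0.28 (SE, adjusted p = 0.0227). That call was lost when only En2KO arrays were fitted (adjusted p = 0.056), and without hippocampus En2KO replicate 2 (0.80, adjusted p = 0.0889), hippocampus En2KO replicate 3 (0.99, adjusted p = 0.0527), cerebellum En2KO replicate 1 (0.76, adjusted p = 0.0868) or cerebellum En2KO replicate 3 (0.82, adjusted p = 0.0942). Cox7b2 differed by 0.22 ± 0.45 (SE, adjusted p = 0.759) in En2KO, and by 0.99, −0.81 and 0.49 on slides 1, 2 and 3. Ndufb8 (0.49, adjusted p = 0.0186) and Ndufa10, an accessory subunit (0.66, adjusted p = 0.037), were higher in cerebellum. Cox7a2l, which joins complexes III and IV, was lower by 0.53 (adjusted p = 0.0192), whereas in WT its difference was 0.10 (adjusted p = 0.624). Without slide 2 the calls of Ndufb8, Ndufa10 and Cox7a2l were lost, with adjusted p of 0.161, 0.148 and 0.142. Each was also lost without 1 or more single arrays, and those of Ndufb8 (0.15) and Ndufa10 (0.51) with 75th percentile scaling. That of Ndufb8 was lost as well with the mean of its probes (0.83, adjusted p = 0.249).

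The calls of both genotypes had 3 genes in common, Cox6a2, Cox7a1 and Ndufb8, with the same sign. These are 27.3% of the WT calls and 50% of the En2KO calls. The share over all genes was not counted, so the overlap is not read as high or low. Uqcrc1, called in WT, differed by 0.23 ± 0.17 (SE, adjusted p = 0.341) in En2KO, with cerebellum levels of 15.56, 15.36 and 15.19 against 15.29, 14.89 and 15.22 in hippocampus. Atp5a1 missed the threshold in En2KO as in WT (0.48, adjusted p = 0.0527), again with groups that did not overlap.

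A difference between genotypes in the region effect was tested directly as an interaction. By limma 0 of the 88 genes passed, where 0.145% of all 15834 genes did (0.0379% higher and 0.107% lower). At an unadjusted p under 0.05 there were 4, Cox7a2l, Uqcrc1, Cox6a2 and Atp5l, against 11.8% of all genes. The interaction was −0.63 ± 0.21 (SE, adjusted p = 0.332) for Cox7a2l and −1.61 ± 0.71 (SE, adjusted p = 0.409) for Cox6a2. It was above 0 for 15 of the 88, against 42.7% of all genes. The median over the 88 was −0.30, against −0.09 over all genes, and it was −0.09 without cerebellum En2KO replicate 2 and −0.01 without slide 2. With 75th percentile scaling it was −0.65, and that scaling moved the median of all genes from −0.09 to −0.21.

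The mean over the subunit genes differed between arrays of 1 group. For the 77 subunit genes measured on all 12 arrays, the mean log2 deviation from each gene's own mean was −0.11, −0.47 and −0.05 in hippocampus WT replicates 1, 2 and 3. It was 0.08, 0.08 and 0.06 in hippocampus En2KO, and −0.03, 0.09 and 0.24 in cerebellum WT. In cerebellum En2KO it was 0.29, −0.36 and 0.18. The lowest arrays, hippocampus WT replicate 2 and cerebellum En2KO replicate 2, lay on the same slide, which also held cerebellum WT and hippocampus En2KO arrays that were not low.

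The drop on these arrays ran through the complexes. In hippocampus WT the lowest array was at −0.46 for complex I, −0.66 for complex II, −0.53 for complex III, −0.47 for complex IV and −0.45 for ATP synthase. Among single genes, Cox6b1 had levels of 10.99, 8.91 and 11.10 in hippocampus WT and 11.62, 9.30 and 11.64 in cerebellum En2KO, so replicate 2 was lower by over 2 units in both. The 79 cytosolic ribosomal protein genes, other short abundant transcripts, also had their lowest means on these arrays, −0.24 in hippocampus WT replicate 2 and −0.31 in cerebellum En2KO replicate 2. The median signal over background was 5.78 and 7.55 on these arrays, within the range of 5.72 to 10.4 over all 12. What sets these arrays apart was not tested.

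**Figure D3:**
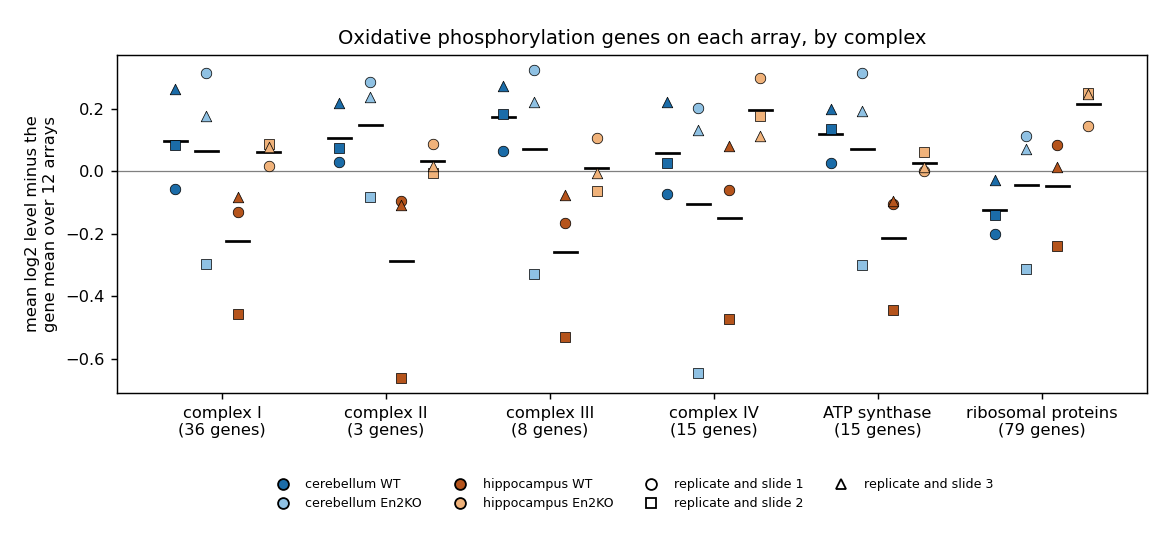
Mean log2 deviation from each gene's mean over the 12 arrays, by complex and for cytosolic ribosomal protein genes. Points are arrays, coloured by group and shaped by slide, and lines are the mean of 3 arrays. The slide 2 arrays of hippocampus WT (−0.46 in complex I) and cerebellum En2KO (−0.30) lie below the other arrays of their groups in each set.

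Slide by slide, the median over the subunit genes of cerebellum minus hippocampus in WT was 0.11, 0.56 and 0.29 on slides 1, 2 and 3, with 48, 72 and 70 of 80 genes higher in cerebellum. The median over all genes on these slides was 0.09, 0.03 and 0.06, so on slide 1 the subunit genes lay near it. In En2KO the subunit median was 0.25, −0.33 and 0.09, so slide 2 was opposite to the others.

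In cerebellum, En2KO and WT mice differed in no oxidative phosphorylation gene by limma. Of 88 genes 0 were called, where 0.66% of all 15611 genes were, and 0 had an unadjusted p under 0.05, against 9.3%. The mean was higher in En2KO for 32 of 88, against 46.2% of all genes, and the median log2 difference was −0.06, against −0.03. The En2KO arrays lay above the WT arrays for 1 of 85 genes, Ndufaf4, and below them for 4, Uqcrc1, Cox5a, Atp5g3 and Cox7a2l, where 5.93% and 8.76% of all genes did so. That median became 0.09 without cerebellum En2KO replicate 2. By complex it ran from −0.09 in ATP synthase to −0.00 in complex II. On slides 1, 2 and 3 the median over the subunit genes was 0.29, −0.32 and −0.05.

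By the rank product, which ranks the genes' differences over all pairs of arrays, 1 gene passed the uncorrected limit of P under 0.01, where 5.03% of all genes did (2.41% higher and 2.63% lower). This was Cox6a2, lower in En2KO (−0.94 ± 0.59, SE, rank product permutation P = 0.00852, limma adjusted p = 0.712). Its levels, 7.21, 6.35 and 7.06 in En2KO against 9.24, 6.67 and 7.53 in WT, overlapped. The difference was −0.23 without cerebellum WT replicate 1. The call was lost without that array, cerebellum WT replicate 3, cerebellum En2KO replicate 2 or cerebellum En2KO replicate 3, and with 75th percentile scaling or no filter on dim probes. The lowest differences after it were Cox7c, a small complex IV subunit (−0.82, adjusted p = 0.654), and Cox7a1 (−0.48, adjusted p = 0.727). The highest were Atp5j2 (0.26), Ndufs6 (0.24) and Cox6c (0.22), with adjusted p from 0.893 to 0.917. The summed level of the 6 Purkinje cell markers ran from 17.6 to 17.7 in cerebellum En2KO and from 17.8 to 18.2 in WT. That of 8 pericyte and smooth muscle markers ran from 13.32 to 13.49 against 13.52 to 14.04, and that of 5 choroid plexus markers from 14.1 to 14.4 against 13.5 to 13.8. Granule cell markers summed to 17.95 to 17.96 against 17.97 to 18.36, and astrocyte markers to 15.92 to 15.95 against 15.96 to 16.07. By gene, however, 3 of 6 granule cell and 4 of 5 astrocyte markers had a higher mean in En2KO. The part of these marker sets in the values was not tested.

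In hippocampus most of these genes had a higher mean in En2KO than in WT, but none passed limma. Of 88 genes 0 were called, where 1.33% of all 14990 genes were, and 11 had an unadjusted p under 0.05, against 19.5%. The mean was higher in En2KO for 74 of 88, against 55.8%, and the median log2 difference was 0.28, against 0.05. The En2KO arrays lay above the WT arrays for 31 of 88 genes and below them for 1, where 15% and 11.3% of all genes did so. These arrays of hippocampus WT also serve in the WT region comparison, so both comparisons share them.

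By complex the median was 0.30 in complex I, 0.26 in complex II, 0.28 in complex III, 0.26 in complex IV and 0.19 in ATP synthase. Within slides 1, 2 and 3 the median over the subunit genes was 0.15, 0.42 and 0.19, of 1 sign. Over the 88 genes it was 0.18 without hippocampus WT replicate 2, 0.15 without slide 2 (0.07 over all genes) and 0.54 with 75th percentile scaling. The cytosolic ribosomal protein genes had a like median, 0.26, with 73 of 82 higher in En2KO. The summed level of 5 choroid plexus markers, a tissue that adjoins the hippocampus, ran from 11.6 to 16.1 in En2KO and from 14.4 to 15.5 in WT. The summed levels of other marker sets were lower in En2KO without overlap. Endothelial markers ran from 13.3 to 13.4 against 13.7 to 13.9, and 3 of 4 genes had an unadjusted p under 0.05. Microglia markers ran from 12.9 to 13.0 against 13.2 to 13.5, with 4 of 5 genes at an unadjusted p under 0.05. Markers of hippocampal neurons ran from 17.0 to 17.2 against 17.3 to 17.7, and astrocyte markers from 15.4 to 15.6 against 15.7 to 15.8. By gene, 1 of 5 microglia, 1 of 6 hippocampal neuron and 2 of 5 astrocyte markers had a higher mean in En2KO. The microglia gene was higher by 0.59, with groups that did not overlap. No marker gene of these sets was called by limma, and their part in the result was not tested.

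Cox7b2 had the largest difference. Its levels were 7.35, 7.76 and 6.40 in hippocampus En2KO and 5.48, 5.55 and 5.95 in WT, without overlap. The difference was 1.51 ± 0.34 (SE, limma adjusted p = 0.0847). By the rank product, at P under 0.005, it was the 1 gene of the 88 called (permutation P = 0.000325), where 4.16% of all genes passed (1.84% higher and 2.31% lower). It was not called by rank product without hippocampus En2KO replicate 2 or without slide 2, and its difference was 0.84 with normexp. Next came Cox8b (0.93, adjusted p = 0.506) and Cox6b1 (0.91, adjusted p = 0.377), both with groups that overlapped. The lowest were Cox7c (−0.36), Sdha (−0.36) and Ndufa10 (−0.33), with adjusted p from 0.354 to 0.421. The 2 other probes of Sdha gave −0.43 and 0.33, so 1 of them had the opposite sign. Cox6a2 had levels of 10.68, 10.93 and 11.20 in En2KO against 10.48, 9.93 and 10.40 in WT, a difference of 0.67 (adjusted p = 0.169) with groups that did not overlap.

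**Figure D4:**
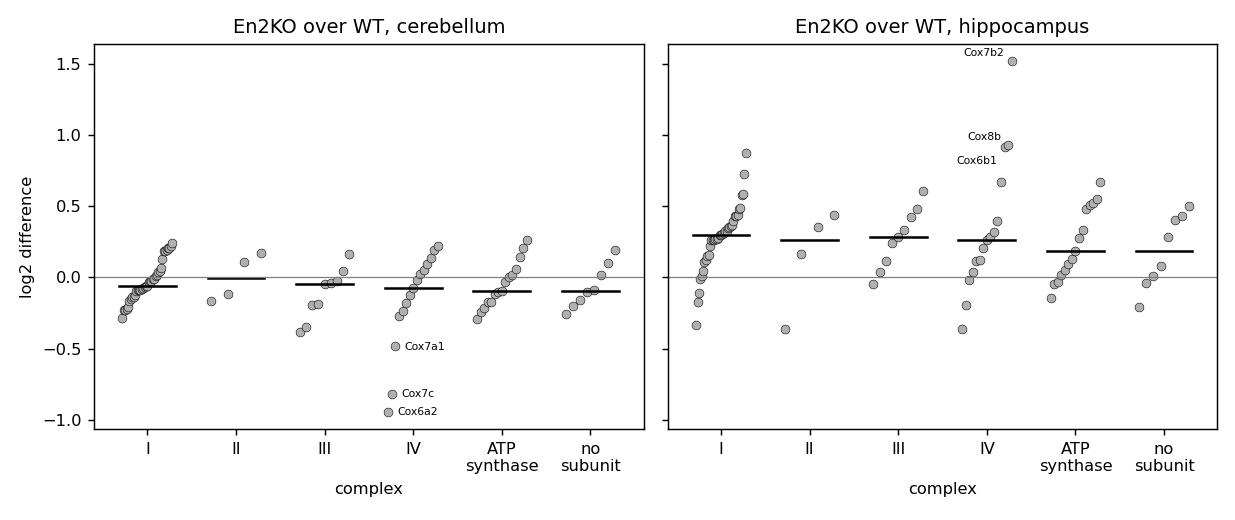
Log2 difference of En2KO over WT for each tested gene, by complex, in cerebellum (left) and hippocampus (right), with 3 arrays per group. Each point is a gene and black lines are medians by complex. No gene passed limma, the cerebellum points lie about 0 with Cox6a2 at −0.94, and most hippocampus points lie above 0 with Cox7b2 at 1.51.

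Genes of neighbouring pathways were counted in the same fits. Between the regions in WT, 5 of 13 regulators of mitochondrial genes were higher in cerebellum and 1 lower, where 17.3% of all genes were called higher and 15% lower. Esrrg, an estrogen-related receptor, was higher by 2.44 (adjusted p = 7.51e-06), the coactivator Ppargc1b by 1.28 (adjusted p = 0.00104) and Ppargc1a by 0.98 (adjusted p = 0.00146). Esrra and Polrmt were also higher, and the coactivator Pprc1 was lower by 0.64. In En2KO 4 of the 13, Esrrg (2.47), Ppargc1b (1.88), Ppargc1a (1.43) and Esrra (0.72), were higher and Tfb2m lower, where 12.8% of all genes were called higher and 14.3% lower.

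Of 17 genes of pyruvate dehydrogenase and the citrate cycle, 4 were higher in cerebellum WT and 0 lower, with a median of 0.39. This count and those of the other lists in WT stand beside the same 17.3% and 15% of all genes, and none is read as particular to its list. Among them, Pcx, pyruvate carboxylase, was higher by 0.69, and Suclg2 and Suclg1 of succinyl-CoA ligase by 0.62 and 0.54. Of 16 glycolysis genes 3 were higher and 2 lower. The heart form of lactate dehydrogenase, Ldhb, was higher by 1.14 and the muscle form, Ldha, lower by 0.74. Muscle phosphofructokinase, Pfkm, was higher by 0.72, the liver form, Pfkl, lower by 1.49, and Aldoc, an aldolase of astrocytes and Purkinje cells, higher by 1.00. The 4 mitochondrially encoded subunits tested, which belong to the same complexes, had a median of 0.05 with 0 called by limma and 0 at an unadjusted p under 0.05. Of 23 other assembly factors 1 was higher, Atpaf1 of ATP synthase (0.65), and 1 lower, Ttc19 of complex III (−0.78). Of 14 other mitochondrial proteins 2 were higher, the outer membrane channel Vdac2 (0.97) and prohibitin Phb (0.96).

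Between genotypes these lists held 1 call by limma in each tissue, among the 23 assembly factors. Of all genes, 0.66% were called in cerebellum and 1.33% in hippocampus, and the call is not read as particular to its list. Acad9, an acyl-CoA dehydrogenase that serves complex I assembly, was lower in En2KO by 1.12 in cerebellum (adjusted p = 0.0402) and by 1.00 in hippocampus (adjusted p = 0.0433). In hippocampus the citrate cycle list had a median of −0.05 with 7 of 17 genes higher in En2KO, and glycolysis −0.14 with 2 of 16 higher. The other lists had medians above 0. These were 0.16 in assembly factors (16 of 23 higher), 0.11 in other mitochondrial proteins (9 of 14) and 0.15 in regulators (7 of 13). Mitochondrially encoded subunits had 0.03 (3 of 4) and ribosomal proteins 0.26 (73 of 82). Beside them stand 74 of 88 oxidative phosphorylation genes and 55.8% of all genes.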

How the data were processed

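Per the labels and file headers, total RNA was labelled with Cy3 and hybridized to Agilent 4x44K mouse arrays (annotation on build mm9). The deposited intensity values came from Agilent Feature Extraction 10.7.3.1, whose processed signal is background corrected. The authors also deposited log2 values, filtered with Agi4x44PreProcess and quantile normalized, apparently within each tissue. These were used only as an alternative for the genotype comparisons.

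Here, control and outlier spots were left out, log2 processed signals were quantile normalized over the 12 arrays, spots were averaged per probe, and each gene was read from its probe with the highest mean. Gene names came from the cerebellum files, since names differed between tissues for 4691 spots (10.8%). A further 6283 of 41174 probes had no name. Genes were tested if 1 or more of the groups compared had every array flagged as well above background. Sdha, Ndufa5 and Uqcr10 lack cerebellum En2KO replicate 3, an outlier spot. Levels are log2 values and are not comparable between genes.

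Region and interaction contrasts were fitted with limma 3.58.1 (R 4.3.3) on 12 arrays, genotype contrasts on the 6 arrays of a tissue, all across all genes. The rank product, the study's test, was written in Python 3.11.15 with 100 permutations and limits of 0.01 (cerebellum) and 0.005 (hippocampus); a missing value took its group mean. Scripts were tested on simulated data. Nothing says how the replicates were dissected or extracted apart, beyond being 3 mice per genotype, so p-values measure the spread between these samples. The number of arrays limits the precision.

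The genes and lists were chosen with earlier results of these data known. Genes named were catalytic subunits and genes with tissue forms, up to 3 called in each direction per complex, and in each tissue the rank product or limma calls and the 3 highest and 3 lowest differences. Ndufb8, the En2KO region calls and the genes named for array spread, the interaction and nearby thresholds were chosen after their values were seen. Same-numbered arrays share a slide, but their deviations correlated between −0.26 and 0.30, so numbers were not taken as pairs. Alternatives changed background correction, normalization, the dim filter, the probe rule, thresholds, the arrays fitted and blocks, and left out each array. Leaving out slide 2 was added after seeing the data. Values of some single genes are not reported here.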

Additional observations from a re-analysis of the deposited data

How the results depend on the processing

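With 3 arrays per group and differences near the replicate spread, counts moved in some comparisons and the sign of the median in others. With 1 array left out, the median between genotypes in cerebellum ran from −0.17 to 0.09. That between regions in En2KO ran from −0.11 to 0.20. For the region comparison in WT, the 11 calls became 17 with normexp, 17 with local background subtraction, 17 with mouse as a random block, 23 at an adjusted p under 0.1, 6 when only WT arrays were fitted and 3 without slide 2, and 4 to 12 when 1 array was left out, with a median of 0.21 to 0.41. Cox6a2, Cox7a1 and Uqcrc1 kept their call in all of these. In En2KO the 6 calls became 3 with 75th percentile scaling and 2 without slide 2, and 2 to 8 with 1 array left out. The hippocampus genotype median became 0.54 with 75th percentile scaling, and the limma count became 1 at an adjusted p under 0.1 and ran from 0 to 1 with 1 array left out (1, Cox7b2, without hippocampus En2KO replicate 3). The cerebellum genotype and interaction counts were 0 under each alternative run.

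The rank product count of 1 in cerebellum became 0 at a percentage of false prediction under 0.05 and with no filter on dim probes, and 2 with normexp, local background subtraction, the authors' log2 values or every array well above background, and ran from 0 to 1 with 1 array left out. In hippocampus the count of 1 became 2 at a limit of 0.01, with normexp, local background subtraction, the authors' log2 values, the mean of all probes or every array well above background, and 0 without slide 2, and ran from 1 to 2 with 1 array left out. The cause of these moves was not tested.

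With the replicate block (slide) the limma counts were 12 for region in WT, 5 in En2KO, and 0 for the interaction and both genotype comparisons.

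Single genes turned sign in few cases, all with differences not past the threshold. Between regions in WT, Cox6a1 was 0.117 with normexp and with local background subtraction and 0.0608 with 75th percentile scaling. With 1 array left out, the difference ran from −0.0423 to 0.155 for Atp5b, from −0.119 to 0.979 for Cox6b1, from −0.0560 to 0.173 for Cox8a, from −0.140 to 0.824 for Cox8b and from −0.114 to 0.287 for Sdha. Without slide 2, Cox6b1 was −0.144, Cox7a2 −0.143, Cox8a −0.0548 and Cox8b −0.171. Between genotypes in cerebellum, Atp5j2 ran from −0.0616 to 0.637 with 1 array left out.

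Of the genes with several probes, another probe had the opposite sign for 6 of 28 in the WT region comparison, 5 of 29 in En2KO, 11 of 29 between genotypes in cerebellum, 9 of 27 in hippocampus and 13 of 29 for the interaction. The authors' log2 values were not run between regions, since they were normalized within a tissue.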
